A study of Solanum lycopersicum with 6 samples.

Results

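The carotenoid enzymes leading to lycopene, the red pigment of ripe tomato, were followed in fruit pericarp. The set, chosen with earlier results of these data known, has 8 genes named by locus: DXS1, DXR, GGPPS2, PSY1, PDS, ZISO, ZDS and CRTISO. Of these, 7 have a row in the authors' deposited table of 8703 genes. DXR (Solyc03g114340) has no row and was not analysed here. RNA sequencing of total RNA from equatorial pericarp, the fleshy wall of the tomato fruit, gave 3 libraries from wild-type fruit (WT) and 3 from transgenic lines called jmj7, all in the Ailsa Craig background, all greenhouse-grown and all taken at 38 days after anthesis. The series' title concerns a histone demethylase, an enzyme that takes methyl groups off histones, and its place in fruit ripening. The labels do not say what the transgene is, how many lines were used or which line gave which library, nor whether the replicates were separate plants, so that p-values measure only the spread between these libraries.

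Carotenoids are built in the plastid from the C5 units of the MEP pathway, in which DXS catalyses the first step and DXR the next. GGPP synthase joins these units to geranylgeranyl diphosphate, and phytoene synthase (PSY) condenses a pair of those molecules to the colourless phytoene. PDS and ZDS are desaturases that extend the chain of conjugated double bonds, while ZISO and CRTISO are isomerases that turn the cis bonds left by this route, the last of them giving all-trans-lycopene. In tomato, PSY1 is known as the phytoene synthase of ripening fruit, and loss of CRTISO is known to give the orange fruit of tangerine plants. Lycopene cyclases then draw lycopene into the carotenes and xanthophylls.

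The columns of the second group carry the prefix JQ, which is in no label. They were taken as jmj7 because WT was the other group, and no direction for jmj7 holds without that step. The deposited table holds only genes that the authors had called: its smallest absolute log2 fold change is 1.00 and its largest p-value 0.0499. A row in it therefore fixes that a gene differs, but not its direction. The libraries held 7508105 to 9155968 reads of these genes in WT and 10937853 to 15254146 in jmj7, which are parts of unknown total depths. The targeted gene was not analysed here, since neither the labels nor the table give its identifier with a name.

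All 7 enzyme genes were higher in jmj7 than in WT, and in none did the libraries of the groups overlap, as was also so for 99.7% of the 7622 genes tested in either direction. The rise was very unequal along the pathway. PSY1, ZISO and GGPPS2 rose 116-fold, 106-fold and 65.8-fold, whereas CRTISO, PDS, ZDS and DXS1 rose 10-fold, 4.58-fold, 4.04-fold and 3.97-fold. These are folds of normalized counts, that is, read counts divided by the size factor that the authors used for each library. By edgeR's quasi-likelihood test with Benjamini-Hochberg adjustment over 7622 genes, 100% of genes were called at an adjusted p under 0.05, 37.2% higher (2837 genes) and 62.8% lower (4785 genes) in jmj7. A call was thus given by the table's selection, and what the 7 genes add is their direction and size. When the factors were recomputed from the listed genes alone, the calls were 3023 higher and 3368 lower. Genes over 32-fold higher made up 3.2% of those tested, and 3 of the 7 enzyme genes were among them. That cut lies in the gap between the folds of CRTISO and GGPPS2, and the set was chosen with earlier results known. The count is therefore a description and not a test of enrichment.

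DXS1 (Solyc01g067890.3, chromosome 1), the entry enzyme of the MEP pathway, was the most abundant of the 7 transcripts in WT. Its FPKM, the authors' value per gene length and sequencing depth, was 94.0, 93.7 and 94.0 in the WT libraries and 255, 251 and 255 in jmj7. Within each group these values lay close together, and the groups stood far apart. On the log2 scale the rise in normalized counts was 1.99 ± 0.0334 (SE, n = 3 per group; edgeR adjusted p = 6.61e-35), against 1.43 by FPKM. Here and below, log2 fold changes are of normalized counts unless FPKM or another scaling is named. By FPKM the rise of each of the 7 enzyme genes was smaller.

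GGPPS2 (Solyc04g079960.1, chromosome 4), which makes geranylgeranyl diphosphate, was the least abundant of the 7 in WT, at 5.87, 7.42 and 5.81 FPKM, on 431 reads over the 3 WT libraries. In jmj7 it stood at 276, 291 and 284 FPKM. Replicate 2 of WT was the highest WT library for this gene, and even that value was far below the lowest jmj7 library. GGPPS2 had the widest spread in WT, with a coefficient of variation of 14.4%. The rise on the log2 scale was 6.04 ± 0.0782 (SE; edgeR adjusted p = 3.17e-42), and the 95% Wald interval of the fold ran from 59.2 to 73.2.

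PSY1 (Solyc03g031860.3, chromosome 3), the phytoene synthase, had 76.7, 69.4 and 71.1 FPKM in WT and 5477, 5787 and 5806 FPKM in jmj7. All jmj7 libraries were thus far above all WT libraries. PSY1 rose by 6.85 ± 0.0366 on the log2 scale (SE; edgeR adjusted p = 6.67e-48), with a 95% Wald interval of the fold from 110 to 122. By mean FPKM it moved from rank 688 among the table's 8703 genes in WT to rank 9 in jmj7. PSY1 took 0.0467% ± 0.00231 (SD, n = 3) of the table's reads in WT and 2.63% ± 0.0792 in jmj7.

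PDS (Solyc03g123760.3, chromosome 3), the desaturase that acts on phytoene, had 42.4, 41.1 and 39.7 FPKM in WT and 129, 129 and 125 FPKM in jmj7. The groups did not overlap, but the step between them was small beside that of PSY1, the enzyme just before it. It rose by 2.20 ± 0.0375 on the log2 scale (SE; edgeR adjusted p = 9.07e-35).

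ZISO (Solyc12g098710.2, chromosome 12), the isomerase that acts on the product of PDS, had 35.8, 37.1 and 37.3 FPKM in WT and 2590.4, 2694 and 2656 FPKM in jmj7. It lay just below PDS in every WT library and far above it in every jmj7 library. ZISO rose by 6.73 ± 0.0388 on the log2 scale (SE; edgeR adjusted p = 6.21e-48), with a 95% Wald interval of the fold from 100.5 to 112. ZISO moved from rank 1271 by mean FPKM in WT to rank 23 in jmj7, and from 0.0156% ± 0.000415 (SD, n = 3) of the table's reads to 0.804% ± 0.0142.

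ZDS (Solyc01g097810.3, chromosome 1), the second desaturase, had 49.9, 51.4 and 52.6 FPKM in WT and 139, 140 and 144 FPKM in jmj7. Every jmj7 library lay above every WT library. ZDS rose by 2.01 ± 0.0388 on the log2 scale (SE; edgeR adjusted p = 3.45e-33).

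CRTISO (Solyc10g081650.2, chromosome 10), the isomerase that completes all-trans-lycopene, had 14.5, 13.8 and 12.8 FPKM in WT and 90.0, 94.1 and 94.3 FPKM in jmj7. Its rise was between those of the 2 desaturases and those of the 3 genes that rose most. CRTISO rose by 3.32 ± 0.0459 on the log2 scale (SE; edgeR adjusted p = 4.97e-38), and the 95% Wald interval of the fold ran from 9.40 to 10.6.

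**Figure D1:**
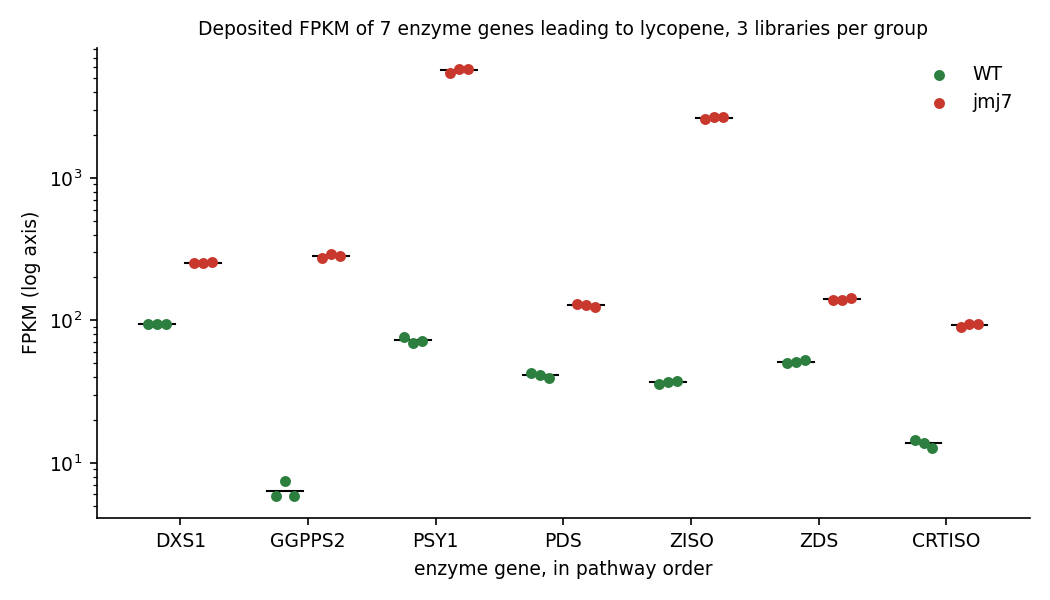
FPKM (log axis) of the 7 enzyme genes in pathway order, with 1 point per library (green for WT, red for jmj7) and a line at the mean of 3 libraries. All red points lie above the green points of the same gene, and PSY1 and ZISO stand apart at 5477 to 5806 and 2590.4 to 2694 FPKM in jmj7.

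The order of transcript levels per length differed between the groups. In WT the mean FPKM fell from DXS1 (93.9) through PSY1 (72.4), ZDS (51.3), PDS (41.1), ZISO (36.7) and CRTISO (13.7) to GGPPS2 (6.37), so that the highest was 14.8 times the lowest. In jmj7 the order was PSY1 (5690 ± 185 SD, n = 3), ZISO (2647), GGPPS2 (283), DXS1 (253), ZDS (141), PDS (128) and CRTISO (92.8), and the highest was 61.3 times the lowest. No neighbours in either order overlapped over their 3 libraries. The narrowest gap in WT was between the lowest PDS library, at 39.7 FPKM, and the highest ZISO library, at 37.3. GGPPS2 and DXS1 were close in jmj7, where the lowest GGPPS2 library had 276 FPKM and the highest DXS1 library 255. Among all 8703 genes, GGPPS2 moved from rank 4081 by mean FPKM to rank 204, and CRTISO from rank 2741 to rank 550. DXS1, PDS and ZDS moved less, from ranks 544, 1152 and 945 to ranks 230, 410 and 371.

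For the 7 enzyme genes, the size of each fold depended on how the libraries were scaled, while its direction did not. Relative to the deposited size factors, the log2 fold change of a typical gene shifted by 1.23 when the factors were recomputed over the table and by 0.32 under TMM, and by -0.56 for the library totals implied by the FPKM values and -1.04 for total reads over the table. The log2 fold change of PSY1 accordingly ranged from 5.81 to 8.08 and that of DXS1 from 0.95 to 3.22 over all alternatives. The upper ends come from factors recomputed over the table and the lower ends from total reads over it. Recomputed factors and TMM assume that most genes are unchanged, but the table holds only genes selected as changed. Total reads over the table carry those changes themselves. The ranges thus partly reflect the table's selection. Relative to the median of all genes tested, which was -1.43, the log2 fold changes were higher by 8.29 for PSY1, 8.16 for ZISO, 7.48 for GGPPS2, 4.76 for CRTISO, 3.63 for PDS, 3.45 for ZDS and 3.42 for DXS1. That median is of genes selected for a change, 62.8% of them lower in jmj7. It is no neutral baseline, and these differences are not corrected fold changes.

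**Figure D2:**
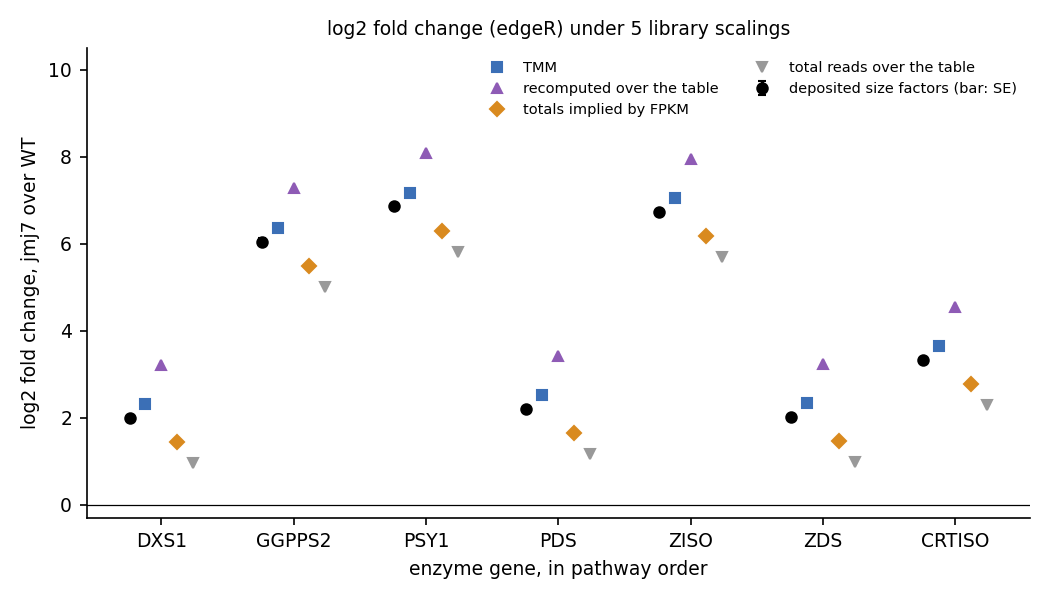
log2 fold change of jmj7 over WT from edgeR (vertical axis) for the 7 enzyme genes in pathway order, under 5 scalings of the libraries; bars on the black points are SE and are mostly smaller than the symbol. Each scaling moves all genes together, and PSY1 spans 5.81 to 8.08 while DXS1 spans 0.95 to 3.22.

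The ratio of 2 genes within 1 library does not depend on that scaling, and it was not what the table was selected on. It was computed for all 21 pairs of the 7 genes, with an exact two-sided permutation test over the libraries, in which 3 against 3 cannot give a p below 0.1. Between PSY1 and the next enzyme, PDS, the FPKM ratio was 1.81, 1.69 and 1.79 in the WT libraries and 42.3, 44.8 and 46.5 in jmj7 (exact permutation p = 0.1, adjusted p = 0.111 over 21 pairs). The ratio of PDS to ZISO went the other way, from 1.19, 1.11 and 1.06 in WT to 0.0499, 0.048 and 0.047 in jmj7 (the same exact p and adjusted p). ZISO to ZDS changed from 0.716, 0.723 and 0.711 to 18.7, 19.3 and 18.4. At the end of the route, ZDS exceeded CRTISO by 3.44, 3.74 and 4.12 times in WT and by 1.54, 1.49 and 1.53 times in jmj7. In each of these 4 pairs the libraries of the groups did not overlap, as in 19 of all 21 pairs. Single genes did not overlap either in 99.7% of those tested, so such counts say little about these enzymes in particular.

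A pair drawn from PSY1, ZISO and GGPPS2 on one side and DXS1, PDS, ZDS and CRTISO on the other shifted by 2.72 to 4.86 on the log2 scale, in 12 of 12 such pairs without overlap. The 9 pairs within those sets shifted by 0.025 to 1.33, and 7 of them did not overlap. The sets were formed from the fold changes themselves, so these ranges and counts are a description. The share without overlap among other gene pairs of the table was not computed. Among the 3 genes that rose most, PSY1 to ZISO was 2.15, 1.87 and 1.90 in WT and 2.11, 2.15 and 2.19 in jmj7 per length. The groups overlapped, with a log2 shift of 0.13 (exact permutation p = 0.2, adjusted p = 0.2 over the 3 pairs of these genes). The 95% Wald interval for the difference between their log2 fold changes ran from 0.022 to 0.231. Intervals of this kind treat the errors of both genes as independent, although the genes were measured in the same libraries. The permutation test cannot give a p below 0.1, and the overlap rests on WT replicate 1. Whether the folds of PSY1 and ZISO differ was thus not settled. GGPPS2 had a smaller fold than both. Its log2 ratio to PSY1 shifted by -0.81 and that to ZISO by -0.68, without overlap (exact permutation p = 0.1 and adjusted p = 0.15 for each), and the 95% Wald intervals ran from -0.98 to -0.64 and from -0.86 to -0.51.

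DXS1 and ZDS kept nearly the same ratio. It was 1.88, 1.82 and 1.79 in WT and 1.83, 1.79 and 1.77 in jmj7 per length, with overlapping libraries (exact permutation p = 0.5). The 95% Wald interval for the difference of their log2 fold changes ran from -0.125 to 0.076. DXS1 to PDS was 2.22, 2.28 and 2.37 in WT and 1.97, 1.94 and 2.04 in jmj7, which did not overlap but is a shift of only -0.21 on the log2 scale. PDS to ZDS shifted by 0.18, also without overlap.

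**Figure D3:**
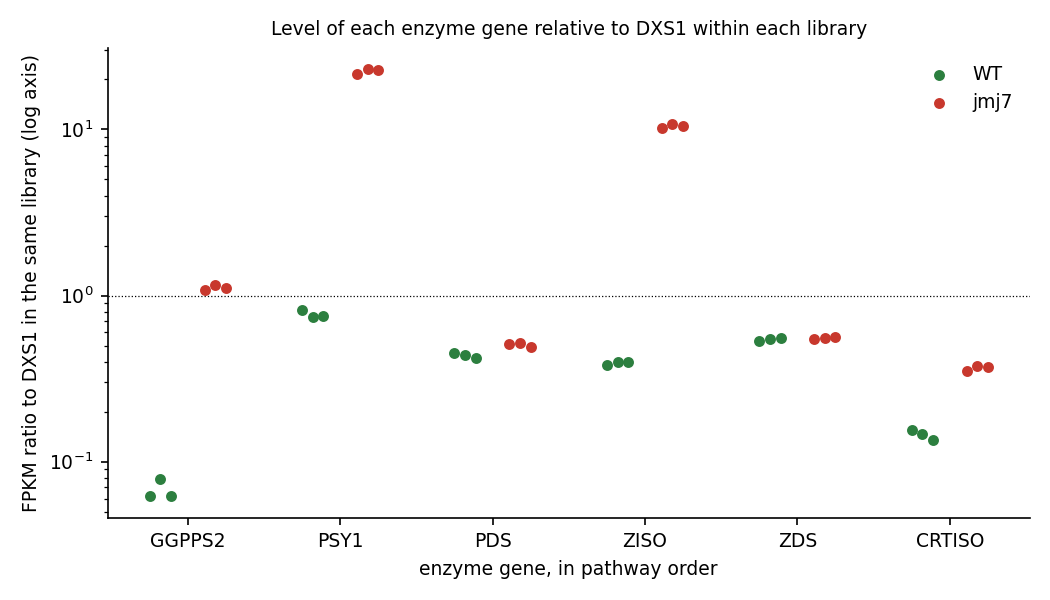
FPKM of each enzyme gene divided by that of DXS1 in the same library (log axis), with 1 point per library (green for WT, red for jmj7) and a dotted line at a ratio of 1. PSY1, ZISO and GGPPS2 cross from below DXS1 in WT to above it in jmj7, while ZDS keeps its place.

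The genes around these enzymes were described from a list of 41 loci of carotenoid synthesis and breakdown, written with earlier results of these data known. Besides the 8 named enzymes it has 33 loci, of which 13 were tested and 20 lack a row. Among the 13 tested, 7 rose and 6 were lower in jmj7, with a median log2 fold change of 1.23, against -1.43 over all genes tested, of which 37.2% were higher. The steps up to lycopene and those after it are described in turn.

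In precursor supply, the second DXS gene moved against DXS1. For DXS2 the WT libraries held 307, 285 and 363 reads and the jmj7 libraries 1, 0 and 2, a ratio of pooled scaled reads of 235 with an exact 95% counting interval from 80.3 to 1143, which covers counting error only. The fitted log2 fold change of DXS2, -7.73, was -8.67 without jmj7 replicate 3. CMK, a kinase of the MEP pathway, rose from 15.8 ± 1.93 to 109 ± 2.51 FPKM (SD, n = 3), or 2.78 on the log2 scale. In normalized counts the rise was 3.34 ± 0.0561 (SE; edgeR adjusted p = 8.93e-36). HDS, an enzyme late in that pathway, rose from 130.2 ± 0.914 to 208 ± 1.35 FPKM, or 0.67 on the log2 scale. Its log2 fold change in normalized counts was 1.23, which became 0.19 with total reads over the table. IDI1, the isomerase that balances the C5 units, had 97.8 FPKM in WT against 299 in jmj7, or 1.61 on the log2 scale. It rose by 2.17 ± 0.0377 in normalized counts (SE; edgeR adjusted p = 1.64e-34). Beside GGPPS2 in the prenyl list, Solyc02g085700.1 rose from 44.4 ± 1.20 to 115 ± 1.88 FPKM. Solyc07g064660.1 fell from 60 pooled reads in WT to 19 in jmj7, and its log2 fold change of -1.21 became 0.0061 with size factors recomputed over the table and lost its call without WT replicate 1 (-0.88, edgeR adjusted p = 0.0701).

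Among the desaturation genes, PTOX, the plastid oxidase that takes up electrons from the desaturases, rose from 22.8 ± 1.09 to 76.2 ± 2.52 FPKM. This is 1.74 on the log2 scale, while the rise in normalized counts was 2.30 ± 0.048 (SE; edgeR adjusted p = 2.27e-32). That lies near the 2.20 of PDS and the 2.01 of ZDS. PSY2, the other phytoene synthase of the list with a checked name, and CRTISO-L1 have no row and were not analysed here. How reads shared by related copies, such as the PSY, DXS and GGPP synthase genes, were assigned is not stated, so their values carry that uncertainty.

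Past lycopene, both cyclase loci with a row were lower in jmj7, as were 62.8% of all genes tested. LCYE, the cyclase leading towards lutein, went from 6.89, 6.48 and 7.17 FPKM in WT to 0.0272, 0.0952 and 0.128 in jmj7, and Solyc10g079480.1 fell from 53 pooled reads to 4, all of them in replicate 3 of jmj7; its log2 fold change of -3.19 became -2.48 without jmj7 replicate 1 and -7.01 without jmj7 replicate 3, the latter set against 0 reads and so dependent on the prior count. LCYB1 and CYCB, the lycopene beta-cyclase genes of the list with a checked name, have no row. Of the xanthophyll genes, BCH2, a carotene hydroxylase, rose with a log2 fold change of 1.51 and VDE, the violaxanthin de-epoxidase, with one of 1.74. With total reads over the table these rises shrank to 0.47 for BCH2 and 0.70 for VDE. ZEP, the zeaxanthin epoxidase, fell with a log2 fold change of -1.36, which shrank to -0.13 with size factors recomputed over the table. In the cleavage list, Solyc08g075490.3 fell from 20.8 ± 1.52 to 0.279 ± 0.134 FPKM (SD, n = 3).

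**Figure D4:**
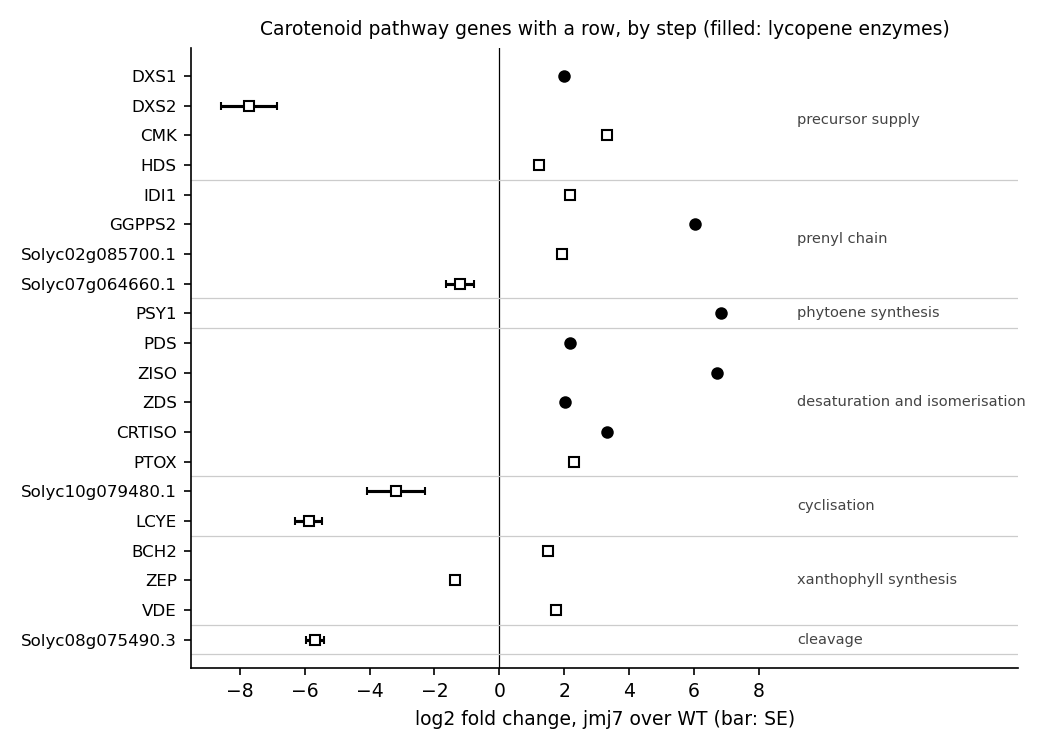
log2 fold change of jmj7 over WT with its SE (horizontal axis) for the 20 carotenoid loci that were tested, grouped by step from precursor supply to cleavage; filled circles are the lycopene enzymes and open squares other listed loci. The filled circles lie between 1.99 and 6.85, and both cyclase loci lie below 0.

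Other genes of the ripening fruit moved in the same libraries. The regulators RIN, NOR, FUL1 and CNR all rose, with log2 fold changes of 10.63, 6.01, 4.69 and 2.12. Of all genes tested, 37.2% were higher, and these regulators come from a list written with earlier results of these data known. Solyc03g093830.3, listed among the plastid regulators, had 18.5 ± 1.99 FPKM in WT and 29.9 ± 1.28 in jmj7 (SD, n = 3). On the log2 scale it rose by 1.25 in normalized counts, by 0.69 in FPKM, or by 0.21 if total reads over the table set the scaling. SGR1, a stay-green protein of chlorophyll breakdown, rose from 14.9 ± 1.81 to 1003 ± 19.7 FPKM (SD, n = 3), and GLK2, which promotes chloroplast development while the fruit is green, fell from 54.8 ± 7.31 to 0.394 ± 0.0696 FPKM. Both groups were taken at the same age, so ripening stage and genotype cannot be told apart in the rise of the enzyme genes. Listed markers of the fruit's epidermis and its cuticle also differed: 3 of 3 fell, where 62.8% of all genes tested were lower. For CD1, which encodes a cutin synthase, the WT libraries together held 10139 reads and the jmj7 libraries 0, at least 2498-fold lower if a group total of 3 reads is taken as the floor. Pooled reads went from 4701 to 0 for Solyc08g081220.1 and from 118 to 2 for Solyc10g075110.2, where both jmj7 reads were in replicate 3. The fitted log2 fold change of Solyc10g075110.2 was -5.24, and it was -4.57 without jmj7 replicate 1 and -8.17 without jmj7 replicate 3, again set against 0 reads. In bulk tissue, fewer cells of a type and less RNA per cell cannot be told apart, and the part of tissue composition in the rise of the enzyme genes was not tested.

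The genes most like each enzyme gene were sought by Euclidean distance over the 6 libraries in log2(FPKM + 0.1), which joins level and change. The nearest to GGPPS2 was CHS1, a chalcone synthase gene of the flavonoid pathway, at a distance of 0.608, with mean FPKM of 6.02 in WT and 358 in jmj7. Next came Solyc10g085230.2 (0.777) and Solyc08g066690.3 (0.813). For ZISO the nearest was Solyc03g082420.3, at 0.189, with 35.6 FPKM in WT and 2558 in jmj7, followed by Solyc10g080900.2 (0.764) and Solyc07g056510.3 (0.816). PSY1, at rank 9 by mean FPKM in jmj7, had no such close companion. Its nearest was VI, the vacuolar invertase gene, at 1.84, with mean FPKM of 140.3 in WT and 7803 in jmj7, and then Solyc09g008970.1 (2.05) and Solyc10g085880.1 (2.52). For the genes that rose less the nearest distances were small: 0.143 for PDS (Solyc04g009230.3), 0.207 for ZDS (Solyc07g052700.3), 0.209 for DXS1 (Solyc02g070500.1) and 0.245 for CRTISO (Solyc02g079170.3). No enzyme gene was among the 3 nearest of another. Nearest distances of other genes at like levels were not computed, so how far these distances depend on level was not tested.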

How the data were processed

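HISAT2 is named in the submitters' processing notes, while version, build, read counter and strandedness were not given in the sources used here. For each library the authors deposited read counts, FPKM values and a signal that equals the count divided by 1 size factor (the normalized count). Deposited log2 fold changes and p-values of the authors accompany them, per the file headers.

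Counts were tested with edgeR 4.0.16 (R 4.3.3; glmQLFit, then glmQLFTest; prior count 0.125) on genes kept by filterByExpr at a minimum count of 10, scaled by the deposited size factors, with Benjamini-Hochberg adjustment. Standard errors are Wald errors of that fit, never below the counting error. DESeq2 1.42.0, other scalings, no filter, a replicate block and leaving out each library were alternatives. The code was tested on simulated data. Libraries of a group differed by more than counting error alone gives: chi-square per gene was 1.63 to 3.63. This cannot tell separate plants from repeat preparations of the same sample.

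Members, lists and tests were chosen with earlier results of these data known. The ratio test was designed for 3 pairs and extended to 21 once 7 members had a row. Apart from the 8 enzymes, symbols are printed only where the reference gene table (SLM_r2.1) has them, or a synonym, on the chromosome and in the order that the locus names; 39 of 51 listed loci passed. For CHS1 and VI only the chromosome was checked. By the naming rule, values are given for each called carotenoid locus, the listed regulators and the nearest genes, of which only the nearest is given for 4 enzymes.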

Additional observations from a re-analysis of the deposited data

How the results depend on the processing

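Under 13 alternatives, the 7 enzyme genes kept their direction and their call in 91 of 91 values, which says little about robustness since the table was chosen for large differences. Without the 10 most abundant other genes as part of the total, the shares of PSY1 became 0.0493% in WT and 3.45% in jmj7, and those of ZISO 0.0165% and 1.06%. Leaving out single libraries gave log2 ratio shifts from -0.907 to -0.666 for GGPPS2 to PSY1, from -0.758 to -0.577 for GGPPS2 to ZISO and from 0.089 to 0.188 for PSY1 to ZISO, and moved no member's log2 fold change by more than 0.121. Of 297 values of the 23 other listed genes, 295 kept direction and call. The other 2 belong to Solyc07g064660.1: 0.0061 with size factors recomputed over the table and -0.88 without WT replicate 1. Solyc10g079480.1 did not pass the low-count filter under TMM or under recomputed size factors, and so has no value there. Same-numbered libraries did not deviate together (correlations of -0.028, 0.0225 and -0.0109), and with a replicate block 2837 genes were called higher and 4785 lower, with PSY1 at 6.85. Among the 7 enzyme genes, GGPPS2 in WT had the fewest reads, 431 over 3 libraries; several other listed genes rest on far fewer.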
